A study of Mus musculus with 12 samples.

Results

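The adult hemoglobin genes Hba-a1, Hba-a2, Hbb-bs and Hbb-bt and the red cell heme enzyme gene Alas2 were examined in mouse ears injected with IL-17A, IL-36γ or both. These 5 genes, of 50684 in the count table, were chosen by name because their levels were raised after IL-17A alone, so their values in IL-17A against PBS are given as a description with no test. All 5 were among the 19408 genes that passed the filter on low counts. Female C57BL/6 mice aged 8 weeks received PBS, IL-17A, IL-36γ, or IL-17A + IL-36γ intradermally into the ear pinnae in a volume of 5 µl, PBS serving as the solvent in every group. The cytokine groups received 1 µg of each cytokine they are named for, and treatment continued over the 4 days before ears were taken. Of 5 mice per group, 3 were sequenced as total RNA depleted of ribosomal RNA. The sample is part of an ear, another part having gone to histology, and includes its blood vessels. The methods of the paper do not say whether blood was removed from them.

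Hemoglobin is a tetramer of alpha globin chains, encoded by Hba-a1 and Hba-a2, and beta globin chains, encoded by Hbb-bs and Hbb-bt, each holding a heme group that binds oxygen. Alas2 encodes the red cell form of 5-aminolevulinate synthase, the enzyme that commits glycine and succinyl-CoA to heme synthesis in erythroid cells. Mature red cells of mammals have no nucleus, and reticulocytes, their youngest circulating form, still carry globin mRNA. In whole tissue, fewer cells of a type and less RNA per cell cannot be told apart.

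The alpha globin genes lie on chromosome 11, Hba-a1 (ENSMUSG00000069919) at chr11:32283511-32284465 and Hba-a2 (ENSMUSG00000069917) at chr11:32296489-32297298, on the plus strand of GRCm38. The beta globin genes lie on the minus strand of chromosome 7, Hbb-bs (ENSMUSG00000052305) at chr7:103826534-103828096 and Hbb-bt (ENSMUSG00000073940) at chr7:103812524-103813996. Each globin gene has 3 exons. Alas2 (ENSMUSG00000025270) lies on the plus strand at chrX:150547375-150570638 with 11 exons in its longest coding transcript. The 4 sequences below are shown because the 5 genes varied together across the libraries, and each is the 250 bases that precede the RefSeq start of a gene on GRCm38.p6, read 5′ to 3′ on the strand of the gene. Capitals mark matches, on either strand, to GATAA (the core bound by GATA factors), CACCC (bound by factors of the Klf family), CCAAT and TATAA. The windows are chr11:32296242-32296491 for Hba-a2, chr7:103827929-103828178 for Hbb-bs, chr7:103813924-103814173 for Hbb-bt and chrX:150547167-150547416 for Alas2, and the RefSeq starts lie downstream of the outermost start in the gene annotation.
Hba-a2: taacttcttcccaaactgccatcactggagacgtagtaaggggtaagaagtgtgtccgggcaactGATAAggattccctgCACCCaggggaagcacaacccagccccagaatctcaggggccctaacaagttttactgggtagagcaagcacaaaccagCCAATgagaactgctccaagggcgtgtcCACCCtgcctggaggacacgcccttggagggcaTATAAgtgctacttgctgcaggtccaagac
Hbb-bs: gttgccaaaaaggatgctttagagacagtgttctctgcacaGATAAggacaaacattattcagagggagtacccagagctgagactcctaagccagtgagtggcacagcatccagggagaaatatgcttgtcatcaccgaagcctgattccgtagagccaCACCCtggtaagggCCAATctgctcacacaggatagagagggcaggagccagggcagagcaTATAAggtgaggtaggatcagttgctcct
Hbb-bt: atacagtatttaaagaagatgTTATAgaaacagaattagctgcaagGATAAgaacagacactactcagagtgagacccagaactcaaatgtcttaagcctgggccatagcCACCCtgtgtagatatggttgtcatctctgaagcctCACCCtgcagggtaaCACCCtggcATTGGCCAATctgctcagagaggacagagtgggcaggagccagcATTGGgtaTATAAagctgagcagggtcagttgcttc
Alas2: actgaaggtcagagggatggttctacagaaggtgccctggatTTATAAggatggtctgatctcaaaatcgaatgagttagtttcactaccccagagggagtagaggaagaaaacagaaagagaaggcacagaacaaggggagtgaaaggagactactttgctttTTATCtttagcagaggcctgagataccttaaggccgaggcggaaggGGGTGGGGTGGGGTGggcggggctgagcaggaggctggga

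The window of Hba-a1 was identical to that of Hba-a2 over 247 aligned bases. In Hba-a2 the match to GATAA began 185 bases before the start, those to CACCC 170 and 63 bases, that to CCAAT 91 bases and that to TATAA 30 bases before it. Hbb-bs had 1 match to each, with GATAA at 209, CACCC at 90, CCAAT at 76 and TATAA at 29 bases before the start. Hbb-bt held GATAA at 204 bases and CACCC at 140, 104 and 89 bases before the start, followed by CCAAT at 75 and TATAA at 28 bases. Its other matches, to CCAAT at 80 and 36 bases and to TATAA at 229 bases, were on the opposite strand. Alas2 held GATAA at 86 bases and CACCC at 40, 35 and 30 bases before the start, all on the opposite strand, and its matches to TATAA at 208 and 207 bases overlapped each other. No CCAAT was found in that window. Of 32817 RefSeq windows of this length, 22.6% held GATAA, 52.0% CACCC, 33.8% CCAAT and 22.8% TATAA. The pair GATAA and CACCC occurred together in 10.1% and all 4 motifs in 0.969%. These matches describe letters and do not show that a factor was bound.

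The 12 libraries held 25293468 to 34759293 counts. Marker genes of epidermis, such as keratins, summed to between 15100 and 36900 CPM (the counts of a gene relative to the scaled total of its library) in every library, which fits the labelled tissue. The 4 globin genes took from 0.00577% of the counts (95% Wilson interval 0.00549% to 0.00607%) in IL-17A + IL-36γ replicate 1 to 0.0305% (0.0299% to 0.0311%) in IL-17A replicate 2. Intervals cover counting error only. Nothing in the labels names litters or cages, so p-values measure the spread between these mice.

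Alpha globin was highest after IL-17A. The level of Hba-a1 was 13.5, 16.6 and 10.8 CPM in the 3 PBS libraries, 18.7, 52.6 and 33.8 CPM after IL-17A, 23.2, 12.8 and 16.9 CPM after IL-36γ, and 10.4, 11.4 and 18 CPM after IL-17A + IL-36γ. Hba-a2 was at 7.83, 9.85 and 5.03 CPM in PBS, 10.9, 27.9 and 18.3 CPM after IL-17A, 12.2, 6.36 and 7.53 CPM after IL-36γ, and 6.32, 7.24 and 10.2 CPM with both cytokines. For both genes every IL-17A library lay above every PBS library and above every IL-17A + IL-36γ library, but IL-17A replicate 1 lay below IL-36γ replicate 1.

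Beta globin had the same order. Hbb-bs, the more abundant beta globin, was at 50.1, 62.4 and 37.3 CPM in PBS, 80.4, 198 and 129 CPM after IL-17A, 88.8, 49.7 and 64.4 CPM after IL-36γ, and 39.3, 49.8 and 75.5 CPM after IL-17A + IL-36γ. Hbb-bt was at 6.5, 9.03 and 4.63 CPM in PBS, 12.7, 34 and 20.8 CPM after IL-17A, 13.9, 7.91 and 8.81 CPM after IL-36γ, and 3.78, 7.31 and 10.3 CPM with both. IL-17A replicates 2 and 3 held the highest levels of both genes, and IL-17A replicate 1 again lay below IL-36γ replicate 1. The lowest level of Hbb-bt was in IL-17A + IL-36γ replicate 1, and that of Hbb-bs in PBS replicate 3.

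Alas2, the heme enzyme, had 5.64, 6.51 and 3.7 CPM in PBS, 6.91, 18.6 and 14.2 CPM after IL-17A, 8.58, 5.17 and 6.26 CPM after IL-36γ, and 3.82, 4.46 and 6.22 CPM after IL-17A + IL-36γ. IL-17A replicate 1 exceeded PBS replicate 2 only narrowly. Across the 5 genes the order of group means was IL-17A, then IL-36γ, with PBS and IL-17A + IL-36γ lowest and in either order. The IL-17A and IL-36γ libraries overlapped for all 5 genes, as did the libraries of IL-36γ, PBS and IL-17A + IL-36γ.

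**Figure D1:**
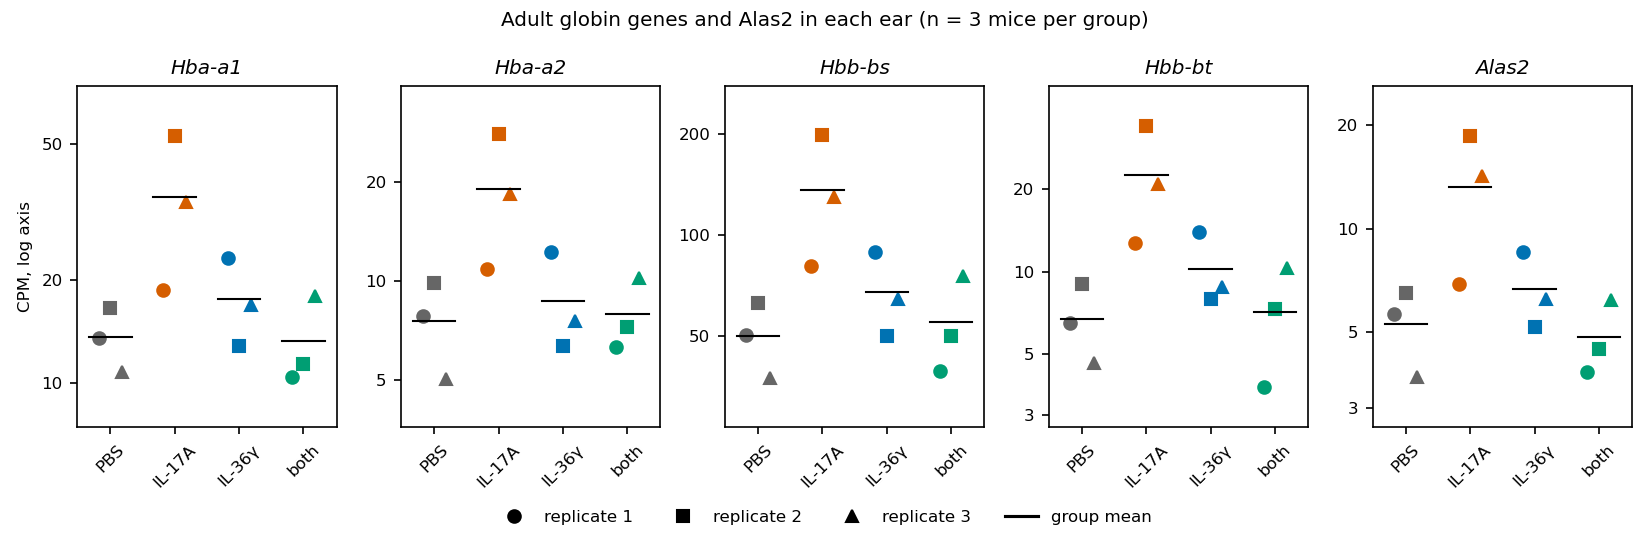
Level of each gene in CPM, on a log axis with its own range, in the 12 libraries, where "both" is IL-17A + IL-36γ, marker shapes give the replicate and black lines the group mean. The IL-17A means lie highest for all 5 genes, with replicates 2 and 3 far above replicate 1 in that group.

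Per exonic kilobase, Hbb-bs had the highest level of the 5 genes in PBS, 65 ± 16.3 CPM per kilobase (SD, n = 3). Hba-a1 was at 16.8 ± 3.59, Hba-a2 at 11.3 ± 3.63, Hbb-bt at 9.56 ± 3.14 and Alas2 at 2.2 ± 0.6 CPM per kilobase. After IL-17A Hbb-bs was again highest, at 177 ± 76.7, and Alas2 lowest, at 5.52 ± 2.47 CPM per kilobase, while Hbb-bt at 32 ± 15.2 and Hba-a2 at 28.5 ± 12.8 overlapped in their spread. The split within each globin pair is uncertain, since the copies are nearly identical. The coding sequences of Hba-a1 and Hba-a2 differed at 1 of 429 bases, and those of Hbb-bs and Hbb-bt at 1 of 444 bases. Of the 76-base windows in the exons, the length of a read, 67.8% of Hba-a1 and 84.4% of Hba-a2 occurred in the other alpha globin gene, as did 51.4% of Hbb-bs and 56.5% of Hbb-bt in the other beta globin gene. Alas2 shared 311 exonic bases with Apex2 on the opposite strand, and 61 with Mir3620, which had at most 2 counts. Apex2 was at 18 ± 1.94 CPM in PBS, 13.4 ± 1.12 after IL-17A, 13.9 ± 2.06 after IL-36γ and 14.4 ± 1.67 with both, so its mean lay lowest where that of Alas2 lay highest.

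The comparison of IL-17A with PBS is the one that chose the genes. The log2 fold change was 1.36 (SE 0.34) for Hba-a1, 1.33 (0.35) for Hba-a2, 1.44 (0.33) for Hbb-bs, 1.74 (0.40) for Hbb-bt and 1.33 (0.34) for Alas2, a 2.51- to 3.35-fold higher level. Of all genes tested, 1.07% were called raised and 1.03% lowered. A call needed an adjusted p-value under 0.05 together with a log2 fold change beyond 1 in either direction. All 5 genes had every IL-17A library above every PBS library, a pattern shared by 19.6% of genes tested, and nothing is read from this count because these libraries chose the genes. The median log2 fold change of the 5 genes was 1.36 (all genes 0.04). Without IL-17A replicate 2 it was 0.97, and without IL-17A replicate 1 it was 1.63.

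IL-36γ against PBS asks whether the other cytokine alone moved the same genes, although its PBS libraries also entered the choice. No change was called for any of them. The log2 fold changes were 0.37 for Hba-a1, 0.20 for Hba-a2, 0.44 for Hbb-bs, 0.60 for Hbb-bt and 0.33 for Alas2, with adjusted p-values of 0.434, 0.692, 0.336, 0.277 and 0.475 in edgeR's quasi-likelihood test with Benjamini-Hochberg adjustment. The count of 0 of 5 called stands beside 5.11% of all genes called raised and 1.98% called lowered, and 0 of 5 had an unadjusted p-value below 0.05. The 95% interval of the log2 fold change ran from -0.28 to 1.16 for Hbb-bs and from -0.28 to 1.48 for Hbb-bt. The difference between the cytokines was not tested.

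After IL-17A + IL-36γ the 5 genes were near their PBS levels. Their log2 fold changes against PBS were -0.04 for Hba-a1, 0.07 for Hba-a2, 0.14 for Hbb-bs, 0.09 for Hbb-bt and -0.13 for Alas2, with adjusted p-values of 0.759 to 0.94 in edgeR's quasi-likelihood test. In this comparison 7.35% of all genes were called raised and 6.06% lowered, whereas 0 of 5 were called and 0 of 5 had an unadjusted p-value below 0.05. The 95% intervals lay within -0.88 and 0.98 for all 5 genes. The sign of each of these values turned when single libraries were left out, for example without PBS replicate 2 to 0.13 for Hba-a1 and 0.06 for Alas2, and without PBS replicate 3 to -0.15 for Hba-a2, -0.03 for Hbb-bs and -0.11 for Hbb-bt. The same PBS libraries also entered the choice of the genes.

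IL-17A + IL-36γ against IL-36γ is the comparison that shares no library with the choice, and it gives the effect of IL-17A added to IL-36γ. The estimates were below 0 for all 5 genes, with log2 fold changes of -0.41 (SE 0.35) for Hba-a1, -0.13 (0.36) for Hba-a2, -0.30 (0.33) for Hbb-bs, -0.51 (0.41) for Hbb-bt and -0.46 (0.34) for Alas2. None was called, with adjusted p-values of 0.547 to 0.896 in edgeR's quasi-likelihood test. All groups overlapped here, and 0 of 5 passed an unadjusted p-value of 0.05. Over all genes 0% were called raised and 0.0103% lowered. The upper ends of the 95% intervals were 0.34, 0.64, 0.42, 0.37 and 0.29. With the replicate number as a block, 0 of 5 were called at adjusted p-values of 0.501 or more in edgeR, and 0 of all genes were called in place of 2. In none of these 3 tested comparisons did DESeq2 call a member either.

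Against IL-17A alone, the combination had lower levels of all 5 genes. The log2 fold changes were -1.40 for Hba-a1, -1.26 for Hba-a2, -1.30 for Hbb-bs, -1.66 for Hbb-bt and -1.45 for Alas2, given without a test because the IL-17A libraries chose the genes. Every IL-17A + IL-36γ library lay below every IL-17A library for 5 of 5 genes, as for 25.4% of all genes tested. Over all genes 4.46% were called raised and 4.49% lowered. The difference between the change by IL-17A with IL-36γ and without it was -1.77, -1.47, -1.74, -2.26 and -1.79 on the log2 scale, in the order Hba-a1, Hba-a2, Hbb-bs, Hbb-bt and Alas2, and this too is a description.

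**Figure D2:**
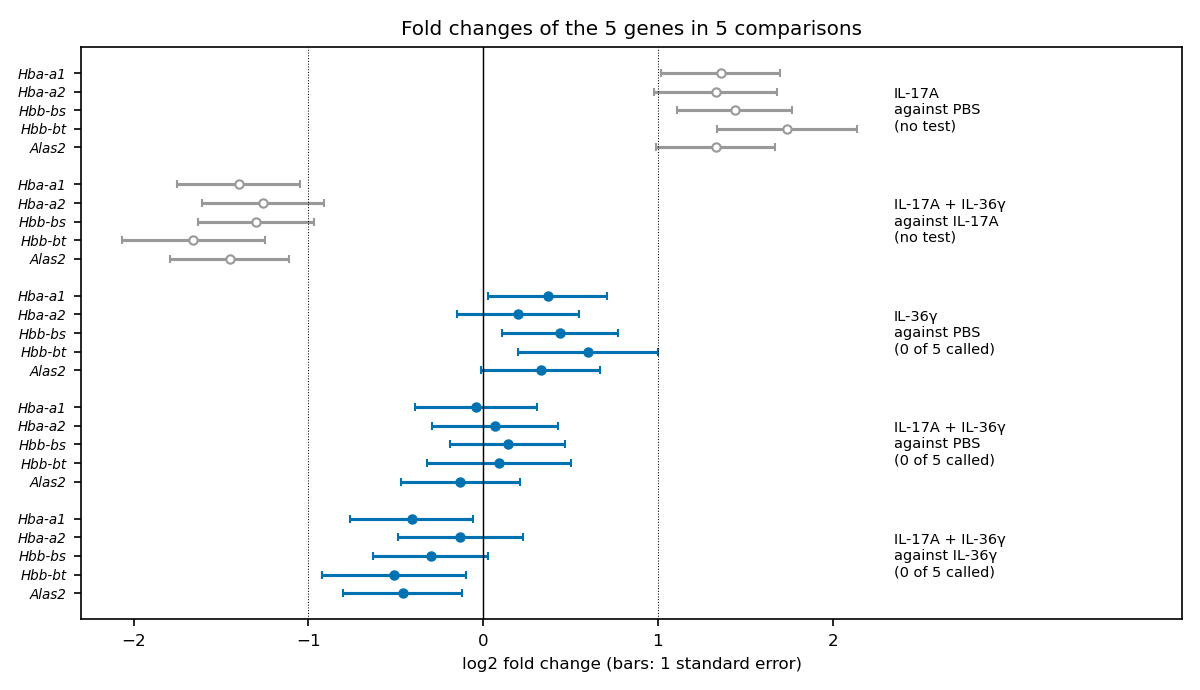
Log2 fold change of each gene in 5 comparisons (points) with 1 standard error (bars). Open grey points are the comparisons given without a test, filled blue points those tested, and dotted lines mark the threshold of 1. Values after IL-17A lie between 1.33 and 1.74, and those after the combination lie within 0.14 of 0 against PBS.

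The 5 genes varied between mice of a group more than most genes did. Their biological coefficient of variation, the spread between replicates beyond counting error, was 29% for Hba-a1, 29.9% for Hba-a2, 28.1% for Hbb-bs, 34% for Hbb-bt and 28.6% for Alas2. The median of all tested genes was 11.8%, and the 5 genes lay between percentiles 92.7 and 95.9. Their counting error in single libraries was 1.3% to 10.2%, highest for Hbb-bt in IL-17A + IL-36γ replicate 1. Within IL-17A the highest library exceeded the lowest 2.46- to 2.81-fold.

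Library by library, the 5 genes moved together. Pearson correlations of log2 CPM over the 12 libraries were 0.954 to 0.99 for the 10 pairs of genes, and 0.918 to 0.987 after the group means were subtracted. The copies within a globin pair share much of their sequence, and how reads that match both were counted is not given. Alas2, which shares no read-length window with a globin gene, had correlations of 0.967 to 0.99. The ratio of alpha to beta globin per exonic kilobase lay between 0.321 and 0.393, with a coefficient of variation of 6.72%. The summed globin level meanwhile ranged from 57.8 to 312 CPM, with a coefficient of variation of 60.8%. Alas2 was 1.72% to 2.28% of the globin level per exonic kilobase. These ratios therefore stayed within narrow limits while the level varied 5.4-fold.

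Smaller shifts in composition were present. The ratio of Hbb-bt to Hbb-bs was 0.136 to 0.158 in PBS, 0.173 to 0.188 after IL-17A, 0.149 to 0.174 after IL-36γ and 0.105 to 0.16 with both cytokines. The IL-17A libraries lay above those of PBS and of the combination in this ratio. The ratio of alpha to beta globin was 0.374 to 0.381 in PBS, 0.321 to 0.35 after IL-17A, 0.333 to 0.347 after IL-36γ and 0.331 to 0.393 with both. All IL-17A and IL-36γ libraries lay below PBS here, as did those of the combination except replicate 1. Both ratios rest on libraries that chose the genes and on copies that share sequence, and they are given without a test.

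**Figure D3:**
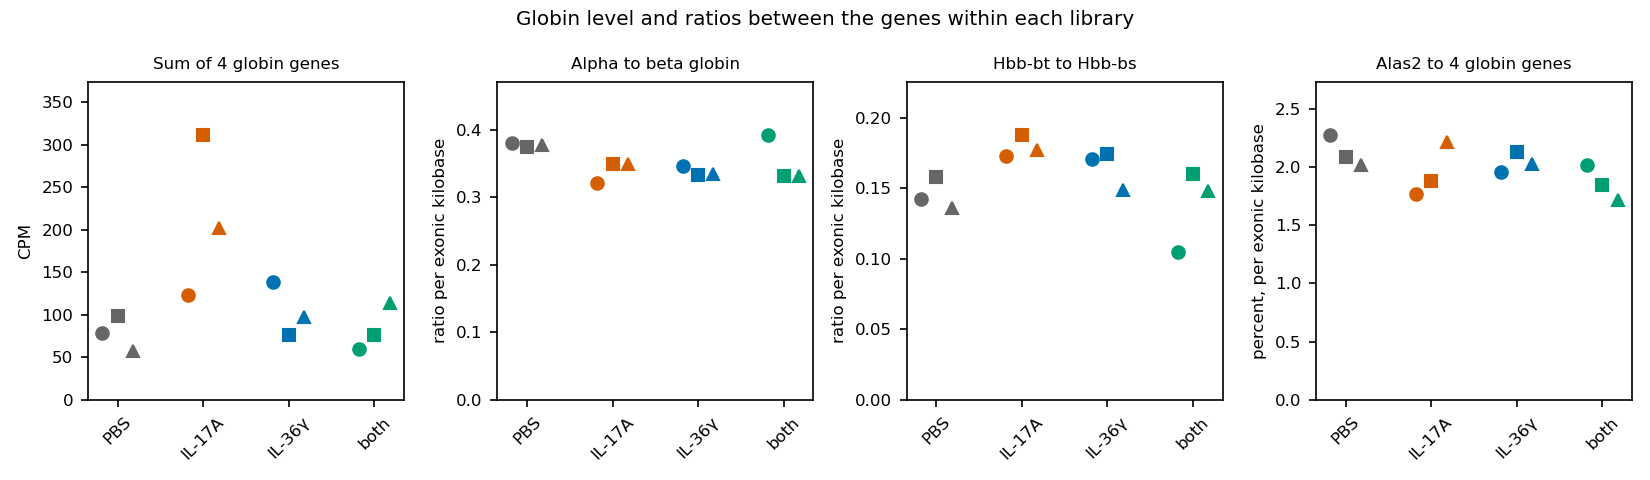
Summed CPM of the 4 globin genes and 3 ratios per exonic kilobase in each of the 12 libraries, on linear axes from 0, where "both" is IL-17A + IL-36γ and circles, squares and triangles are replicates 1, 2 and 3. The summed level spans 57.8 to 312 CPM while the ratio of alpha to beta globin stays between 0.321 and 0.393.

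Other genes of the red cell and of heme were grouped in 7 lists of 72 genes, of which 71 were in the table and 52 were tested. Of the 8 embryonic and theta globin genes none was tested, 5 had no count in any library and no library held more than 3 counts of any of them. In IL-17A against PBS, 3 of 52 genes (5.77%, against 1.07% of all genes) were called raised and 0 lowered, and the median log2 fold change was 0.23 (all genes 0.04). The count of 3 became 0 without PBS replicate 3 or IL-17A replicate 1, and 1 without IL-17A replicate 3. In IL-36γ against PBS 4 were raised and 0 lowered, or 7.69% and 0% beside 5.11% and 1.98% of all genes. In IL-17A + IL-36γ against PBS 6 were raised and 2 lowered, or 11.5% and 3.85% beside 7.35% and 6.06%. In IL-17A + IL-36γ against IL-17A 3 were raised and 5 lowered, or 5.77% and 9.62% beside 4.46% and 4.49%. In IL-17A + IL-36γ against IL-36γ 0 of 52 were called by edgeR's quasi-likelihood test, 11 had an unadjusted p-value below 0.05, and DESeq2's likelihood ratio test called 1.

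As a list, heme synthesis, which the other nucleated cells of the ear also carry out, did not follow Alas2. Of its 11 genes 0 were called in any of the 5 comparisons, and the median log2 fold change in IL-17A against PBS was 0.15. Alas1, which encodes the form of the synthase used in most tissues, was at 57.8 ± 3.45 CPM in PBS, 59 ± 1.57 after IL-17A, 69.9 ± 4.2 after IL-36γ and 76.3 ± 9.57 with both (SD, n = 3). With both against PBS its log2 fold change was 0.40 (edgeR adjusted p = 0.00311), under the threshold on size. Fech, which inserts iron into the ring, was at 72.8 ± 4.33 CPM in PBS, 83 ± 1.1 after IL-17A, 72 ± 1.16 after IL-36γ and 66.2 ± 3.28 with both. Its mean was thus highest after IL-17A and lowest with both, as for Alas2. In IL-17A against PBS its log2 fold change was 0.19, with an adjusted p-value of 0.0638 in edgeR's quasi-likelihood test. In the combination against IL-17A it was -0.33 (edgeR adjusted p = 0.00232), under the threshold on size. Of 9 genes of iron handling 0 were called in IL-17A against PBS. In that comparison Tfrc, the transferrin receptor, had a log2 fold change of 0.32 with an edgeR adjusted p-value of 0.0254, under the threshold on size. Fth1, the heavy chain of ferritin, had 0.75 there (edgeR adjusted p = 0.00745) and Ftl1 had 0.54 (0.0145), also under that threshold. Of the 9 genes, 5 had estimates above 0 and 4 below 0 in IL-17A against PBS. After IL-36γ the value of Fth1 against PBS was 0.67 (edgeR adjusted p = 0.000999). With both cytokines Fth1 rose by a log2 value of 1.02 with an edgeR adjusted p-value of 3.56e-05. This value fell under the threshold on size without PBS replicate 1 (0.99) or IL-17A + IL-36γ replicate 1 (0.92).

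Among 15 genes of the red cell membrane, of which 10 were tested, 2 rose after IL-17A, among them Slc4a1. This gene, which encodes the anion exchanger band 3, had 13, 10 and 2 counts in PBS, 9, 37 and 25 after IL-17A, 8, 8 and 7 after IL-36γ, and 5, 5 and 3 with both. IL-17A replicates 2 and 3, the libraries with most globin, held the most counts of it.

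The log2 fold change in IL-17A against PBS was 1.84 (SE 0.51, adjusted p = 0.0422, edgeR's quasi-likelihood test) for Slc4a1. Few counts carried this call, and it was lost without PBS replicate 2 (adjusted p = 0.104, edgeR) or 3 (0.154) and without IL-17A replicate 1 (0.0582), 2 (0.141) or 3 (0.0895). It was also lost with scaling by library size only (edgeR adjusted p = 0.0502), with the 2 groups alone in the fit (0.122) and in DESeq2's likelihood ratio test (adjusted p = 0.113), and kept in DESeq2's Wald test on all libraries. Against IL-17A, the combination had lower Slc4a1, with a log2 fold change of -2.43 (SE 0.57, edgeR adjusted p = 0.00759), a call kept without each of the 6 libraries.

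The remaining called genes of the membrane list behaved otherwise. Epb42, which encodes protein 4.2, was at 0.605 ± 0.273 CPM in PBS, 0.401 ± 0.0561 after IL-17A and 1.15 ± 0.284 with both, and rose in the combination against IL-17A by a log2 value of 1.51 (SE 0.38, edgeR adjusted p = 0.0107). Sptb, Ank1 and Tmod1, which encode beta spectrin, ankyrin and tropomodulin and are also expressed in skeletal muscle, fell there by 1.31, 1.17 and 1.54 on the log2 scale (edgeR adjusted p-values 0.0428, 0.0267 and 0.0104). Against PBS, Sptb fell by 1.19 and Tmod1 by 1.35 (edgeR adjusted p-values 0.048 and 0.0136), and DESeq2 did not call Sptb there (adjusted p = 0.0616 in the Wald test and 0.118 in the likelihood ratio test). Leaving out single libraries ended both calls against PBS (without PBS replicate 2 or 3 or IL-17A + IL-36γ replicate 1 or 2, adjusted p up to 0.178 for Sptb and 0.0575 for Tmod1). It also ended those of Sptb (without IL-17A replicate 2 or 3 or IL-17A + IL-36γ replicate 1 or 2, up to 0.146) and Ank1 (without each IL-17A library in turn, or IL-17A + IL-36γ replicate 1 or 2, up to 0.103) against IL-17A.

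Skeletal muscle markers moved with these 3 genes. Summed over 8 markers they were at 409 to 3490 CPM in PBS, lowest in replicate 1, 2160 to 3030 CPM after IL-17A, 1210 to 2240 CPM after IL-36γ and 251 to 1330 CPM with both. Sptb was likewise at 7.08 CPM in PBS replicate 1, against 24.8 and 21.6 CPM in replicates 2 and 3. The part of muscle in the values of Sptb, Ank1 and Tmod1 was not tested. Hbb-bs in PBS replicate 1, at 50.1 CPM, lay between the other PBS libraries. As for globin, the mean of the muscle sum was highest after IL-17A, at 2660 CPM. It was 2310 CPM in PBS, 1780 CPM after IL-36γ and 670 CPM with both, and the PBS and IL-17A libraries overlapped.

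Of the genes of the red cell cytoplasm, 12 were in the table and 8 tested, and 0 were called in IL-17A against PBS. Bpgm, which makes the hemoglobin effector 2,3-bisphosphoglycerate, was at 20.5 ± 1.95 CPM in PBS, 25.7 ± 2.63 after IL-17A, 18.9 ± 1.21 after IL-36γ and 17.4 ± 1.16 with both, with a log2 fold change of 0.33 (edgeR adjusted p = 0.0539) for IL-17A against PBS. Car2, or carbonic anhydrase 2, rose with both cytokines against PBS by a log2 value of 1.28 (edgeR adjusted p = 0.0117), and lost the call without IL-17A + IL-36γ replicate 1 (0.0511).

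Of 8 genes of erythroid transcription and erythropoietin signalling, Klf1, Gata1 and Nfe2 were low. The list as a whole summed to 27.8 to 32.6 CPM in PBS, 35.1 to 41.9 after IL-17A, 43.3 to 46.9 after IL-36γ and 40.1 to 40.9 with both. Klf1 had 1 to 4 counts in every library and was not tested. Gata1 was at 0.248 ± 0.0534 CPM in PBS and 0.396 ± 0.0947 after IL-17A, a log2 fold change of 0.65 with an edgeR adjusted p-value of 0.24. Against PBS its log2 fold change was 0.84 after IL-36γ and 0.22 with both (edgeR adjusted p-values 0.0894 and 0.68). Nfe2, which acts in erythroid and megakaryocytic cells and is expressed in granulocytes too, was at 0.163 ± 0.16 CPM in PBS, 0.5 ± 0.157 after IL-17A, 1.27 ± 0.271 after IL-36γ and 2.19 ± 0.392 with both. It rose in IL-36γ against PBS by a log2 value of 2.93 and in IL-17A + IL-36γ against PBS by 3.72 (edgeR adjusted p-values 0.00117 and 9.53e-05), and in the combination against IL-17A by 2.14 (0.00235). This order is not that of the globin genes. Epor, the erythropoietin receptor, rose after IL-36γ by a log2 value of 1.19 (edgeR adjusted p = 0.0126), and lost the call without PBS replicate 3 (0.0591) or IL-36γ replicate 3, where the log2 fold change was 0.97.

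Of 8 genes that clear hemoglobin and heme, 1 rose after IL-17A, 2 after IL-36γ and 3 with both cytokines, all against PBS. Hp encodes haptoglobin, which binds free hemoglobin, and had 39.9 ± 10.3 CPM in PBS, 113 ± 21.2 after IL-17A, 81.2 ± 19.1 after IL-36γ and 99.7 ± 28.7 with both. It rose against PBS by log2 values of 1.5, 1.02 and 1.32 in that order (edgeR adjusted p-values 0.0132, 0.0113 and 0.00144). In the IL-17A group the call ended without PBS replicate 3 (edgeR adjusted p = 0.0888) or IL-17A replicate 1 (0.067), and with the 2 groups alone in the fit (0.0574). The call after IL-36γ was lost without PBS replicate 3 (0.0548), and also without IL-36γ replicate 1 or 3, where the log2 fold change was 0.90 or 0.93.

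Hpx encodes hemopexin, the carrier of free heme, and had 0.631 ± 0.119 CPM in PBS, 1.26 ± 0.637 after IL-17A, 2.82 ± 0.873 after IL-36γ and 3.85 ± 0.352 with both. It rose after IL-36γ and with both against PBS by 2.15 and 2.60 on the log2 scale (edgeR adjusted p-values 0.00089 and 0.000111), and in the combination against IL-17A by 1.61 (0.00275). Hmox1, or heme oxygenase 1, was at 60.2 ± 12 CPM in PBS, 116 ± 24 after IL-17A, 99.9 ± 2.89 after IL-36γ and 177 ± 15.2 with both. It rose against PBS in the combination by a log2 value of 1.55 (edgeR adjusted p = 2.95e-05), while the value of 0.95 after IL-17A (0.0122) fell short of the threshold on size. Cd163, the receptor for haptoglobin with hemoglobin on macrophages, had log2 fold changes of 0.69, 0.83 and 0.44 after IL-17A, IL-36γ and both (edgeR adjusted p-values 0.0845, 0.0266 and 0.162).

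Marker lists of other cells moved in other orders than globin did. Of 53 tested genes of 8 lists, 9 were raised and 1 lowered in IL-17A against PBS. These were 17% and 1.89%, beside 1.07% and 1.03% of all genes. In IL-36γ against PBS 19 were raised and 1 lowered, or 35.8% and 1.89% beside 5.11% and 1.98%. In IL-17A + IL-36γ against PBS 20 were raised and 3 lowered, or 37.7% and 5.66% beside 7.35% and 6.06%. In the combination against IL-17A 12 were raised and 5 lowered, or 22.6% and 9.43% beside 4.46% and 4.49%. The 10 calls in IL-17A against PBS became 0 without PBS replicate 3 or IL-17A replicate 1 and with the 2 groups alone in the fit, and 4 without PBS replicate 2. In the combination against IL-36γ 0 were called by edgeR, 18 had an unadjusted p-value below 0.05 and DESeq2's likelihood ratio test called 5. The 8 genes of mature neutrophils, among them S100a8 and S100a9, summed to 20.4 to 100 CPM in PBS, 387 to 882 after IL-17A, 2290 to 4840 after IL-36γ and 7620 to 10100 with both. Within IL-17A this sum was highest in replicate 1, where globin was lowest. Of the 8 genes 5 were called raised in IL-17A against PBS, 7 in IL-36γ against PBS and 8 in IL-17A + IL-36γ against PBS. After IL-17A the log2 fold changes of S100a8 and S100a9 were 4.43 and 4.29, against a median of 2.04 for the list. The paper names macrophages and keratinocytes beside neutrophils as sources of these S100 proteins. The share of neutrophils in the sum was not tested. Granulocyte precursor genes stayed between 1.06 and 3.98 CPM.

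Lists of endothelium, platelets, B cells and macrophages are given beside the globin levels. The 10 genes of endothelium summed to 215 to 277 CPM in PBS, 256 to 287 after IL-17A, 221 to 262 after IL-36γ and 205 to 224 with both, and 0 of 10 were called in any comparison. In the combination against IL-17A, however, 10 of 10 estimates were below 0, with a median log2 fold change of -0.35. Among them Cldn5 had -0.86 and Erg -0.73 (edgeR adjusted p-values 0.00128 and 0.000571), under the threshold on size. Platelet genes summed to 50 to 72.8, 75.6 to 102, 118 to 141 and 121 to 170 CPM in the order PBS, IL-17A, IL-36γ and both, and their defining marker Gp9 had at most 4 counts. Most of this sum was Pf4, which macrophages can also express. Of the 6 platelet genes tested, 1 was raised and 1 lowered in IL-17A against PBS (all genes 1.07% and 1.03%). In IL-36γ against PBS 3 were raised and 1 lowered (all genes 5.11% and 1.98%). B cell genes, of a lymphocyte that circulates in blood, summed to 1.74 to 2.21, 2.96 to 3.72, 5.69 to 7.31 and 5.45 to 6.36 CPM. Macrophage genes summed to 568 to 654, 831 to 1160, 1300 to 1430 and 1180 to 1270 CPM. None of these 4 sums was highest in IL-17A except that of endothelium. Their part in the globin levels was not tested.

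**Figure D4:**
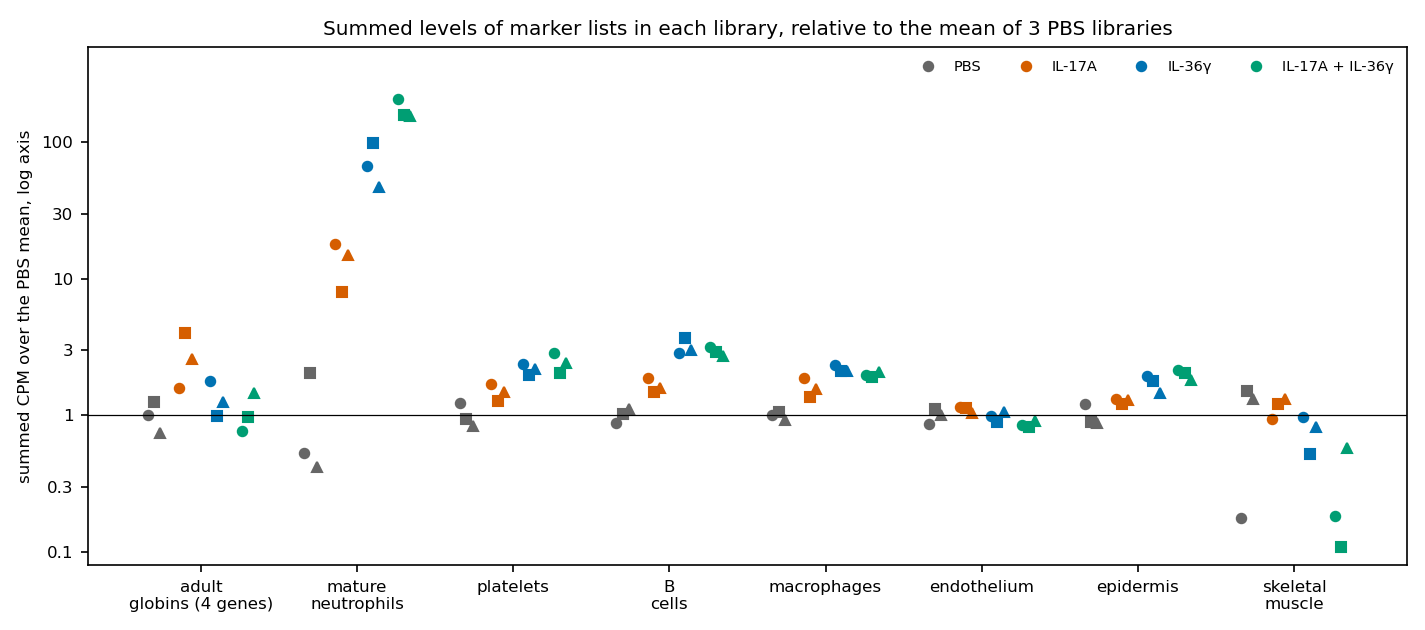
Summed CPM of the globin genes and 7 marker lists in each library, divided by the mean of the 3 PBS libraries, on a log axis, with colours for the groups and circles, squares and triangles for replicates 1, 2 and 3. Group means of globin, endothelium and skeletal muscle are highest after IL-17A, whereas those of neutrophils, platelets and epidermis are highest after IL-17A + IL-36γ. Those of B cells and macrophages are highest after IL-36γ. For endothelium and skeletal muscle the IL-17A and PBS libraries overlap.

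The genes most like the 5 were sought by the correlation of their log2 CPM with the mean of the 5 over the 12 libraries, all from the same libraries and with no test of the likeness. The 10 highest were Tm2d1 (r = 0.91), Rnd3 (0.909), Egr1 (0.902), Id3 (0.875), a gene without a symbol, ENSMUSG00000079834 (0.874), Tent5c (0.874), Slu7 (0.868), Enc1 (0.857), Klf6 (0.85) and Rab28 (0.848). Egr1, an immediate early transcription factor, was at 16.2, 16.8 and 15.5 CPM in PBS, 35.2, 74.1 and 44.3 CPM after IL-17A, 29.3, 24.7 and 31.2 CPM after IL-36γ, and 17.4, 23.8 and 27.6 CPM with both. As with globin, IL-17A replicate 2 was highest, but unlike globin IL-17A replicate 1 lay above all IL-36γ libraries. The other 9 spanned smaller ranges, with log2 fold changes of 0.14 to 0.70 in IL-17A against PBS, against 1.66 for Egr1. Among 19403 genes ranked, listed red cell genes such as Tent5c, Slc4a1 and Bpgm stood at places 6, 15 and 32, with r of 0.808 or more. Other genes of the same lists had r below 0, Epb42 and Epb41 of the membrane standing at places 17680 and 18147 (r = -0.445 and -0.497) and Blvrb, Ube2o and Bnip3l of the cytoplasm at 10827, 11984 and 13695 (-0.023, -0.086 and -0.175).

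After the group means were subtracted, the 10 highest included Gm26672 (0.936), Zfp36 (0.921), Srsf12 (0.921), Postn (0.912), Tlk2 (0.903), Acbd5 (0.896), Dusp1 (0.894), Lhfpl3 (0.892) and Tent5c (0.88). Tent5c, a poly(A) polymerase, was the gene present in both lists of 10.

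**Figure D5:**
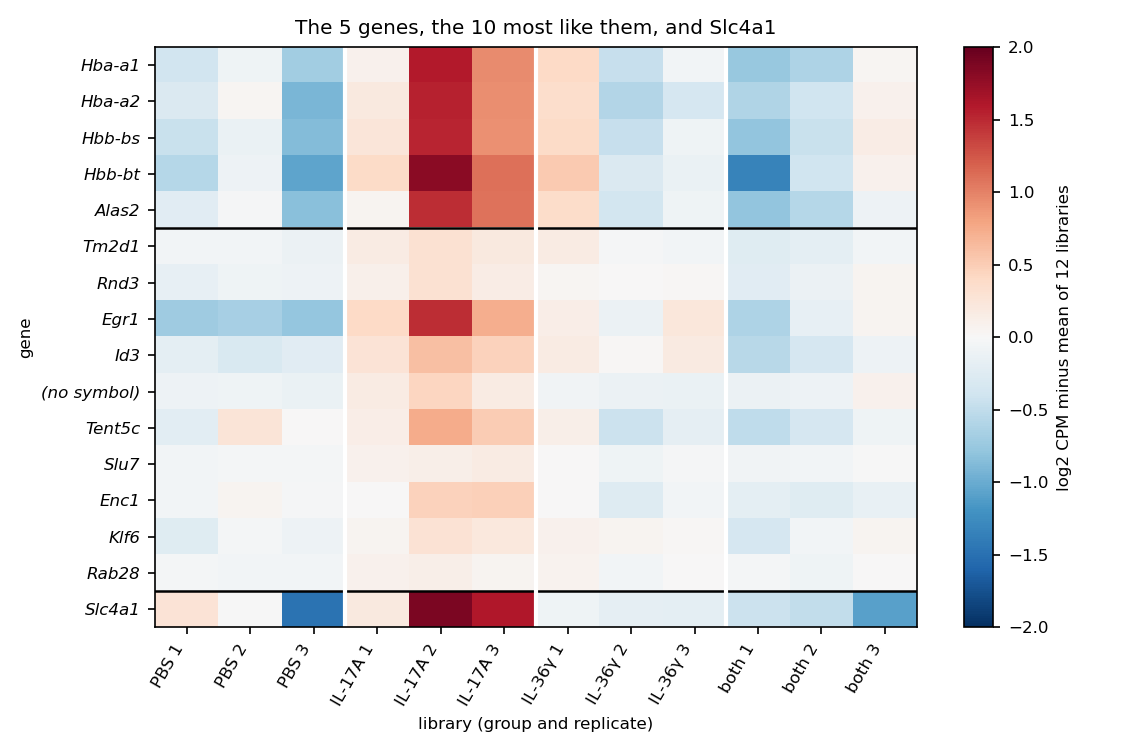
Log2 CPM of each gene minus its mean over the 12 libraries, where "both" is IL-17A + IL-36γ. From top to bottom the blocks are the 5 genes, the 10 genes most like them, and Slc4a1, and IL-17A replicates 2 and 3 are the most raised libraries in the first block.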

How the data were processed

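Total RNA from ears of 12 mice was sequenced as paired reads after depletion of ribosomal RNA with a stranded kit. According to the methods and the labels, reads were aligned to mm10 with STAR 2.5.2b and counted per Ensembl gene with featureCounts of Subread 1.5.1. The strand setting, the handling of reads with several placements and the annotation release are not given in the sources used here. The authors deposited these counts without normalization. They also deposited the results of their own comparisons, made with DESeq2 1.30.0. Only the gene symbols of these were used, and not the fold changes or p-values.

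Libraries were grouped by their labels. Symbols were found for 50374 of 50684 genes, and exons were taken from GENCODE vM21. Genes were filtered by filterByExpr (minimum count 10), scaled by TMM and tested with edgeR 4.0.16 (quasi-likelihood, 12 libraries of 4 groups in 1 fit) in R 4.3.3, with limma 3.58.1 and version 1.17.8 of data.table. Calls needed an adjusted p-value below 0.05 over all 19408 genes and an absolute log2 fold change above 1. CPM are TMM-scaled, and correlations used log2 CPM with a prior count of 2. The procedure was tested on simulated data. The 12 pairs of libraries within groups differed beyond sampling noise, with chi-square values per gene of 6.56 to 58.4, so no library was a copy.

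The genes named were the 5 members, listed red cell and heme genes that were called or that define the class, the 10 genes most like the members by each measure, and at most 2 examples of each other list. Apex2 and Mir3620 were added because they overlap Alas2. Sptb was chosen as an example beside the muscle markers after its values were seen. Some genes that this rule covers are not reported here. The members and the lists were chosen with earlier results of these data known. Of the 140 genes in 15 lists, 1 is not analysed here. Promoter sequences are from RefSeq. Alternatives were other scalings, filters, groups in the fit, DESeq2 1.42.0, no fold threshold, the replicate number as a block, globin counts left out of the library sizes or summed per chain, and each library left out.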

Additional observations from a re-analysis of the deposited data

Results flagged for a closer look

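The change by IL-17A differed with and without IL-36γ for 1 listed red cell gene, Lmo2, a cofactor of erythroid transcription factors that endothelium also expresses. It was at 10.9 ± 0.263 CPM in PBS, 15.8 ± 0.922 after IL-17A, 19.3 ± 2.1 after IL-36γ and 16.7 ± 0.896 with both (SD, n = 3), and the interaction was -0.74 on the log2 scale (SE 0.13, adjusted p = 0.0459, edgeR's quasi-likelihood test with Benjamini-Hochberg adjustment over 19408 genes, of which 107 were called). The interaction was also called for macrophage genes, among them C1qa (-1.07, edgeR adjusted p = 0.0429) and Csf1r (-0.63, 0.0459). In the endothelium list edgeR adjusted p-values were 0.1 or more. Group means of the macrophage sum had the order of Lmo2, with 615, 984, 1350 and 1220 CPM, which is not that of globin. Which cells the Lmo2 counts came from was not tested.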

How the results depend on the processing

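No alternative called any of the 5 genes in the 3 tested comparisons, where the lowest adjusted p-value of the 17 alternatives was 0.167 in IL-36γ against PBS, 0.481 in IL-17A + IL-36γ against PBS and 0.343 in the combination against IL-36γ. Signs of values near 0 turned. In IL-17A + IL-36γ against PBS, library size only gave -0.07 for Hba-a2, 0 for Hbb-bs and -0.05 for Hbb-bt, and moved the median of all genes from -0.03 to -0.17. Leaving out single libraries there gave -0.31 to 0.13 for Hba-a1, -0.15 to 0.31 for Hba-a2, -0.15 to 0.33 for Hbb-bs, -0.26 to 0.39 for Hbb-bt and -0.34 to 0.06 for Alas2. For Hba-a2 it gave -0.15 to 0.43 in IL-36γ against PBS (below 0 without PBS replicate 3 or IL-36γ replicate 1) and -0.35 to 0.20 in the combination against IL-36γ.

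Counts of called red cell and heme genes without a fold threshold were 11 (IL-17A against PBS), 21 (IL-36γ against PBS), 30 (both against PBS) and 25 (both against IL-17A), and those of other lists 19, 36 and 31 (without IL-36γ against PBS). These are of 52 and 53 tested genes. Over all 19408 genes 2120, 5519, 8664 and 6356 were called without that threshold, in the order of the red cell and heme counts. For IL-17A against PBS, library size only gave 1 red cell and heme gene, 10 counts in every library 1, and the 2 groups alone 0, with 0 in other lists. The filter of 10 counts in every library gave 4 red cell and heme genes in both against IL-17A and 13 of other lists in IL-36γ against PBS. It also removed listed genes with low counts. Without single libraries, red cell and heme genes numbered 0 to 3 (IL-17A against PBS, 0 without PBS replicate 3 or IL-17A replicate 1, 1 without IL-17A replicate 3), 2 to 5 (IL-36γ against PBS), 5 to 10 (both against PBS) and 5 to 9 (both against IL-17A). Genes of other lists numbered 0 to 10 in IL-17A against PBS (0 without PBS replicate 3 or IL-17A replicate 1, 4 without PBS replicate 2) and 10 to 19 in both against IL-17A. Over all genes, IL-17A against PBS had 407 calls, 913 without PBS replicate 1, 142 without PBS replicate 2, 11 without PBS replicate 3, 33 without IL-17A replicate 1 and 9 in the 2 groups alone. In the combination against IL-36γ, DESeq2's likelihood ratio test gave 1 red cell and heme gene and 5 of other lists. The causes were not tested.

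Without the division by length Alas2 was 6.4% of globin. The labels do not say that replicate numbers pair the mice. Of 18 same-numbered pairs 9 had a correlation over 0.1 (-0.199 to 0.352), among them all 3 of IL-36γ with IL-17A + IL-36γ (0.128, 0.188 and 0.24). With the number as a block the members' median log2 fold change was 1.33 for IL-17A against PBS and -1.37 for both against IL-17A, 0 members were called elsewhere, and red cell and heme genes called numbered 3, 4, 8, 0 and 8 as before.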

Other observations

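Platelet genes differed among themselves. Pf4, a chemokine of platelet granules that macrophages can also express, was at 42.2 ± 8.57 CPM in PBS, 70.5 ± 12 after IL-17A, 109 ± 10.9 after IL-36γ and 120 ± 22.1 with both (SD, n = 3), and rose against PBS after IL-36γ and with both by log2 values of 1.36 and 1.51 (edgeR adjusted p-values 0.000279 and 6.13e-05). Itga2b, an integrin chain of platelets, was at 9.46 ± 1.03, 9.59 ± 0.478, 10.9 ± 0.0927 and 10.3 ± 1.28 CPM in the same order. Of the 12 listed platelet genes 6 were tested.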
